A study of Mus musculus with 8 samples.

Results

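Acyl-CoA synthetases were followed as a set of 10 genes, chosen by symbol from the 25010 genes of the table: the long-chain synthetases Acsl1, Acsl3, Acsl4, Acsl5 and Acsl6, the medium-chain synthetases Acsm1, Acsm3 and Acsm5, and the transporter-synthetases Slc27a2 and Slc27a4. RNA-Seq had been performed on liver (left lobe) from 2 WT mice and 2 LXRDKO mice, 1 library per mouse, and each genotype was on a C57BL/6 background. WT mice were labelled wild type, and LXRDKO mice lacked LXRα and LXRβ in the whole body, so a change in hepatocytes cannot be told apart from one in the other cells of the liver or from one brought by other organs. All 4 mice were 8 wk old, had been kept on standard chow and had been fasted for 4 to 6 h. Sex and litter were not given in the sources used here, and P values measure only the spread between these mice.

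Acyl-CoA synthetases join a free fatty acid to coenzyme A at the cost of ATP, and almost every later use of the fatty acid, be it oxidation, elongation, desaturation or esterification into triglyceride and phospholipid, starts from the acyl-CoA. The families differ in the chain length they take and in where they sit in the cell. ACSL enzymes act on long chains at the endoplasmic reticulum, the outer mitochondrial membrane and lipid droplets, ACSM enzymes act on medium chains inside mitochondria, and SLC27A proteins couple uptake of long and very long chains to their activation. LXRs are sterol-activated nuclear receptors that switch on genes of sterol efflux and fatty acid synthesis in liver, and they bind with RXR to direct repeats of the letters AGGTCA spaced by 4 bases (DR4).

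Promoter sequence was read for the members because DR4 letters are the ones LXR is known to bind. RefSeq starts were found for all 10 members, in 13 windows that run from 250 bases before to 50 bases after a start in GRCm38.p6. Motifs were searched on both strands, as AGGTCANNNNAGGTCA with up to 2 mismatches for DR4, AGGTCANAGGTCA with up to 2 mismatches for DR1, the repeat that PPARα and RXR bind, and TCACNCCAC with no mismatch for the sterol regulatory element (SRE) of the SREBP proteins. DR4 letters were present in 2 of the 13 member windows against 3.02% of all 32851 windows, SRE letters in 1 against 1.24%, and DR1 letters in 0 against 3.86%. The motifs were chosen with the expression values known. Each match is a description of letters and not a site of binding, and a window without a match says only that these letters were not in it.

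The promoters of the 3 long-chain synthetases whose levels were furthest below WT are shown, each as the 250 bases before its start on the plus strand. Acsl3 is shown at chr1:78657575-78657824, where capitals mark the DR4 match with 2 mismatches that begins 112 bases before the start. For Acsl1 the second start is shown, at chr8:46490716-46490965, where capitals mark the SRE match that begins 76 bases before the start. That window was the only one of Acsl1 that held any of the 3 motifs, and it lies inside the gene, which begins at 46471037. Which start is used in these livers was not tested. Acsl5 is shown at chr19:55253119-55253368, which held none of the 3 motifs.
Acsl3: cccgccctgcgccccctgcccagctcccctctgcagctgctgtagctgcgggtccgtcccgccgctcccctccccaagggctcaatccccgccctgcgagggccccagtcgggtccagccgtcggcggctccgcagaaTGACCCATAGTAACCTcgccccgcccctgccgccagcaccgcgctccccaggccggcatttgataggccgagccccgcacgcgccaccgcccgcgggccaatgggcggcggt
Acsl1: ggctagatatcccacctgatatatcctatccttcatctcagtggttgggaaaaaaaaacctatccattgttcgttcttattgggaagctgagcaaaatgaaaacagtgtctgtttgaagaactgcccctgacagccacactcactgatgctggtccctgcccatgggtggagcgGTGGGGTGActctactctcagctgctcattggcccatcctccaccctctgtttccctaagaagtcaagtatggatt
Acsl5: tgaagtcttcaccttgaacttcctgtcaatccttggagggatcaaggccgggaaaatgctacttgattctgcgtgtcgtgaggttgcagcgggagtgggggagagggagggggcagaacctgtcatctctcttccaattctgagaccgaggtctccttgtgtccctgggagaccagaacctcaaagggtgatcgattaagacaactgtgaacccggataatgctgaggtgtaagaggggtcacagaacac
Part of the Acsl6 promoter is added at chr11:54303615-54303670, because Acsl6 was the only member with DR4 letters at 1 mismatch, marked in capitals and beginning 189 bases before its start.
Acsl6: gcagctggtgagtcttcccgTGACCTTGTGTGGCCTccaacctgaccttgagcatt
The Acsl3 window was 75.6% G and C, against 48.4% for Acsl1 and 52.8% for Acsl5.

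Levels are given as normalized counts, that is, as the reads of a gene over the size factor of its library, and each liver had between 55772659 and 72842744 reads on genes. Genotypes were compared with limma on log2(normalized count + 1) over the 15578 genes whose mean reached 10 normalized counts, and all log2 fold changes below are LXRDKO minus WT on that scale, where changes of weakly expressed genes come out too small. All 10 members passed the filter, but Acsl6 did so only through LXRDKO liver (mean 19.6 against 7.39 in WT), so counts and medians are given for the other 9. Per gene, the median absolute log2 difference of replicates was 0.18 in WT and 0.17 in LXRDKO. Permuting 4 livers exactly gives no two-sided P value for 1 gene below 0.333, so adjusted P values rest on the variance that limma pools across genes. Nr1h3 and Nr1h2, which encode LXRα and LXRβ, had log2 fold changes of −1.65 and −1.66 (limma adjusted P = 0.0147 for each). Nr1h3 had 5785 and 5322 normalized counts in WT against 1712 and 1826 in LXRDKO. Nr1h2 had 2987 and 3110 against 925 and 1003. Reads of both genes thus remained in LXRDKO liver, and their proteins were not measured here.

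None of the 9 members passed an adjusted P value of 0.05 in limma, a threshold that 0.321% of all genes tested passed in either direction and 0.186% passed as lower in LXRDKO. An unadjusted limma P value under 0.05 was seen for 3 of the 9, Acsl1, Acsl3 and Acsl5, all lower in LXRDKO, where 7.50% of all genes met that threshold as lower. DESeq2 on the reads called 1 member, Acsl5, as lower, against 2.03% of the 15797 genes to which it gave an adjusted P value, and edgeR called 0, against 0.315% of all genes. For 4 of the 9 members each LXRDKO liver was lower than either WT liver, Acsl1, Acsl3, Acsl5 and Slc27a2, an arrangement seen in 23.0% of all genes tested. Each was higher for 2 of the 9 (Acsm1 and Acsm5), against 21.7% of all genes, and the groups overlapped for Acsl4, Acsm3 and Slc27a4. The median log2 fold change of the 9 was −0.34, with 6 lower and 3 higher, beside a median of −0.0046 and 50.9% lower over all genes tested. With Acsl6 the median was −0.22. By family, Acsl1, Acsl3, Acsl4 and Acsl5 and both Slc27a genes had negative log2 fold changes, and the 3 Acsm genes had log2 fold changes between 0.01 and 0.14.

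**Figure D1:**
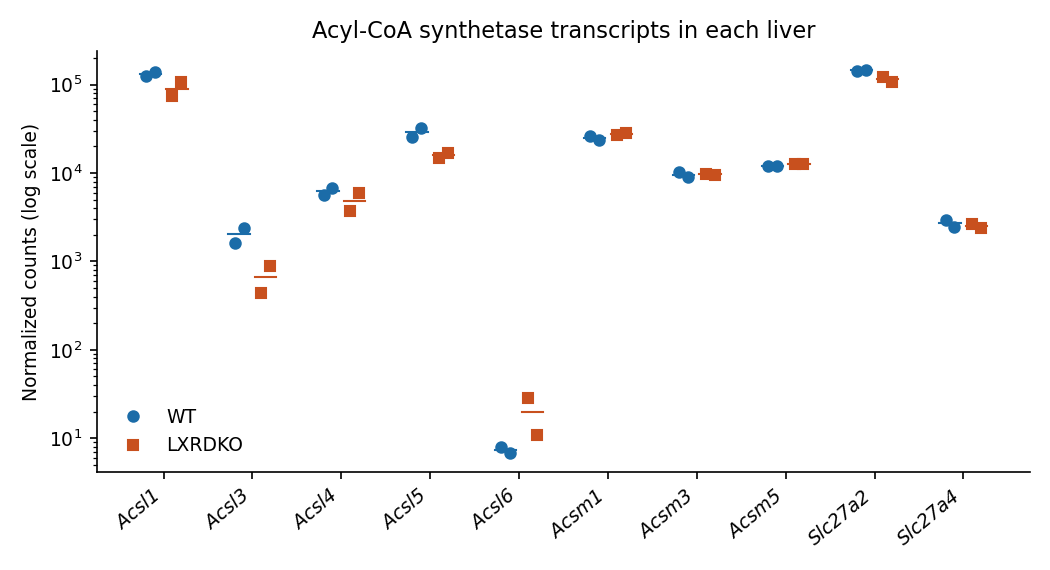
Normalized counts of the 10 synthetases on a log axis, with 1 point per liver (circles WT, squares LXRDKO) and a line at the mean of each genotype. The LXRDKO points of Acsl1, Acsl3, Acsl5 and Slc27a2 sit below both WT points, those of Acsm1 and Acsm5 sit slightly above, and Acsl6, at 6.79 to 28.5, lies under all other members, the lowest of which is Acsl3 in LXRDKO replicate 1 at 437.

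Acsl5, which activates long-chain fatty acids at the outer mitochondrial membrane and the endoplasmic reticulum, had the smallest P value of the set. The gene lies on the plus strand of chromosome 19, from 55251938 to 55297720 of GRCm38 (Ensembl ENSMUSG00000024981). Its normalized counts were 25469 and 32441 in WT against 14764 and 16964 in LXRDKO liver. The lower WT liver was well above the higher LXRDKO liver, and the LXRDKO mean was 54.8% of the WT mean. The log2 fold change of −0.86 (standard error 0.15, 95% interval −1.24 to −0.49) was larger in size than the log2 difference of 0.35 between the WT livers and of 0.20 between the LXRDKO livers. In limma its adjusted P value was 0.121, and in edgeR 0.133. DESeq2 called Acsl5 (adjusted P = 4.65e-05), as did limma without WT replicate 1 (adjusted P = 0.0212), so the call depended on the test and on that liver. Zdhhc6, a gene on the opposite strand that shares exon sequence with Acsl5, had 4088 and 4123 normalized counts in WT against 4225 and 4308 in LXRDKO.

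Acsl3, an enzyme of the endoplasmic reticulum and of growing lipid droplets, had the largest log2 fold change of the set. It lies on chromosome 1, from 78657825 to 78707743 on the plus strand (ENSMUSG00000032883). The WT livers had 1612 and 2417 normalized counts of Acsl3, and the LXRDKO livers had 437 and 894. Both LXRDKO livers were under the lower WT liver, but the livers of each genotype also stood apart from each other, by a factor of 1.50 in WT and 2.05 in LXRDKO. The log2 fold change was −1.66 (standard error 0.37, 95% interval −2.57 to −0.75), with an adjusted P value of 0.163 in limma, 0.106 in DESeq2 and 0.186 in edgeR. Leaving out a single liver moved the log2 fold change of Acsl3 between −2.17 and −1.14. Utp14b, a ribosome assembly gene on the same strand that shares exons with Acsl3, had 519 and 553 normalized counts in WT against 258 and 538 in LXRDKO. Reads in the shared exons cannot be assigned to either gene from these values, and Utp14b, like Acsl3, was lower in LXRDKO replicate 1 than in LXRDKO replicate 2.

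Acsl1, the main long-chain synthetase of liver, which feeds both oxidation and triglyceride synthesis, was the most abundant ACSL transcript. It lies on the plus strand of chromosome 8, from 46471037 to 46536051 (ENSMUSG00000018796). Its normalized counts were 126241 and 140614 in WT and 74032 and 106464 in LXRDKO. The groups did not overlap, yet the LXRDKO livers differed from each other by a factor of 1.44 against 1.11 for the WT livers. Acsl1 differed by −0.59 on the log2 scale (standard error 0.21, 95% interval −1.12 to −0.06), and the adjusted P value was 0.337 in limma, 0.0882 in DESeq2 and 0.350 in edgeR. Acsl1 stood at −0.32 without LXRDKO replicate 1 and at −0.85 without LXRDKO replicate 2. The gene did not pass the threshold in any of these tests.

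Acsl4, which prefers arachidonic acid and other polyunsaturated chains, had 5587 and 6841 normalized counts in WT against 3683 and 5918 in LXRDKO. LXRDKO replicate 2 lay between the WT livers, so the groups overlapped. For Acsl4 the log2 fold change was −0.41 (95% interval −0.99 to 0.18, limma adjusted P = 0.544). That interval holds a lower level, no difference and a slightly higher level. Without LXRDKO replicate 1 the value was −0.063, and without LXRDKO replicate 2 it was −0.75. In LXRDKO replicate 1, Acsl1, Acsl3 and Acsl4 were all lower than in LXRDKO replicate 2, and Acsl5 was as well.

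Acsl6, best known from brain, where it serves docosahexaenoic acid, was near the limit of detection in liver. It had 7.98 and 6.79 normalized counts in WT against 28.5 and 10.7 in LXRDKO, which correspond to 7, 8, 30 and 10 reads. Both LXRDKO livers were above both WT livers, but most of the difference lay in LXRDKO replicate 1. Because Acsl6 passed the filter only through the group where it was higher, no test is given for it. Its log2 fold change was 1.15 with all livers and 0.49 without LXRDKO replicate 1.

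**Figure D2:**
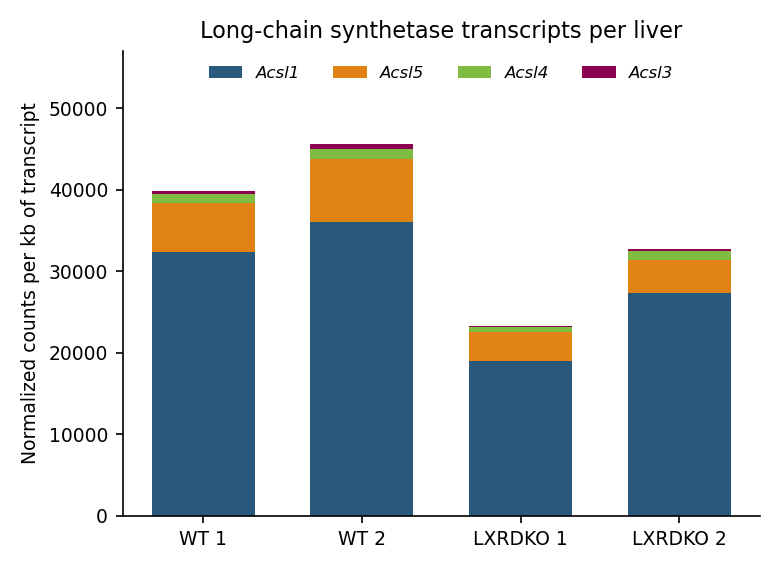
Normalized counts per kb of transcript for Acsl1, Acsl5, Acsl4 and Acsl3, stacked for each of the 4 livers. By this length Acsl1 makes up 79.1% to 83.6% of every bar, and both LXRDKO bars (23296 and 32669) are shorter than both WT bars (39866 and 45638). Acsl6, under 11 per kb in every liver, is left out of the bars.

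Divided by the length of the longest principal transcript, the ACSL transcripts added up to 39866 and 45638 normalized counts per kb in WT and to 23296 and 32669 in LXRDKO, with no overlap. Acsl1 had the largest share of that sum in each liver, and took 81.3% and 79.1% of it in WT against 81.5% and 83.6% in LXRDKO liver. Acsl5 took 15.1% and 16.8% in WT and 14.9% and 12.2% in LXRDKO, whereas Acsl3 took 1.02% and 1.34% in WT and 0.475% and 0.693% in LXRDKO. Acsl4 took 2.65% and 2.84% in WT and 2.99% and 3.43% in LXRDKO. In the shares of Acsl5 and Acsl3 each LXRDKO liver was lower than either WT liver, and in those of Acsl1 and Acsl4 each was higher. For Acsl5 and Acsl1 the nearest livers of the genotypes lay close, at 15.1% against 14.9% and 81.3% against 81.5%. The shares depended on the length used: with the union of exons Acsl1 took between 61.2% and 68.0% in the 4 livers and Acsl5 between 23.3% and 30.4%, of a sum of 18683 and 21904 per kb in WT and 10882 and 14945 in LXRDKO. The order of the livers in the shares of Acsl1, Acsl3, Acsl4 and Acsl5 was the same with both lengths. These shares were not tested.

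The medium-chain synthetases Acsm1, Acsm3 and Acsm5 lie close together on the plus strand of chromosome 7, between 119519463 (the start of Acsm5) and 119787513 (the end of Acsm3), and had log2 fold changes near 0 with narrow intervals. Acsm1, which also activates benzoate for conjugation to glycine, had 26470 and 23918 normalized counts in WT against 26703 and 28644 in LXRDKO. Both LXRDKO livers were above both WT livers by a small margin, with a log2 fold change of 0.14 (95% interval −0.14 to 0.41, limma adjusted P = 0.667). Acsm5, a mitochondrial matrix enzyme of the same family, had 12071 and 12019 normalized counts in WT against 12735 and 12791 in LXRDKO. The livers within a genotype agreed to within 0.01 on the log2 scale, and the log2 fold change was 0.08 (95% interval −0.13 to 0.30, limma adjusted P = 0.748). Acsm3, another mitochondrial enzyme of medium-chain fatty acids, had 10307 and 8894 normalized counts in WT against 9808 and 9461 in LXRDKO. Both LXRDKO values of Acsm3 lay between the WT values, and the log2 fold change was 0.01 (95% interval −0.25 to 0.27, limma adjusted P = 0.983). The 3 intervals leave room for changes of up to 0.41 on the log2 scale upwards and 0.25 downwards. Acsm genes are close copies of each other, and how multiply aligned reads were counted was not given in the sources used here. Exons of Acsm3 and Acsm5 also overlap Eri2 and Pdilt on the opposite strand, and the strand setting of the counting was not given either.

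Slc27a2, also known as FATP2, imports long-chain fatty acids and activates very long chains, and was the most abundant member per length. It lies on chromosome 2, from 126552407 to 126588243 (ENSMUSG00000027359). Its normalized counts were 142919 and 146718 in WT and 120859 and 107702 in LXRDKO. Each LXRDKO liver was below each WT liver, and the livers of a genotype lay close together, at 0.04 apart on the log2 scale in WT and 0.17 in LXRDKO. The log2 fold change was −0.34 (standard error 0.15, 95% interval −0.73 to 0.04), with an adjusted P value of 0.416 in limma, 0.166 in DESeq2 and 0.391 in edgeR. Slc27a4, or FATP4, a transporter-synthetase of the endoplasmic reticulum best known from intestine and skin, had 2966 and 2422 normalized counts in WT against 2662 and 2391 in LXRDKO. The groups overlapped, with a log2 fold change of −0.09 (95% interval −0.41 to 0.24, limma adjusted P = 0.839). Slc27a2 provided between 98.4% and 98.8% of the summed level of the pair per kb.

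Ordered by normalized counts per kb in WT liver, the transcripts ran from Slc27a2 (mean 49629) through Acsl1 (34239), Acsm1 (12095), Acsl5 (6824), Acsm5 (4041), Acsm3 (3485), Acsl4 (1177), Slc27a4 (665) and Acsl3 (510) to Acsl6 (2.85). Slc27a4 and Acsl3 were the only neighbours in this order whose WT livers overlapped. In LXRDKO liver Acsm5 (4281) stood above Acsl5 (3739), and the livers of Acsl5 overlapped those of Acsm3 (3497). Acsl3 was then separated from Slc27a4, at 168 against 623 per kb. The place of Acsl1 above Acsm1 in LXRDKO depended on the length used, because its principal transcript has 3897 bases and the union of its exons 10483. With the union of exons Acsl1 had 8609 and Acsm1 12688 per kb in LXRDKO. In WT the livers of the 2 genes then overlapped, at 12042.4 and 13413.5 for Acsl1 against 12136.7 and 10966.6 for Acsm1. As a share of all normalized counts, the 10 members together took 0.556% and 0.609% in WT and 0.440% and 0.483% in LXRDKO.

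Over the 4 livers, the genes whose profile was closest to that of Acsl5 were Whrn, Calml4 and Mr1. The measure was the root mean square difference of centred log2 profiles, which was 0.03, 0.03 and 0.04 for these genes. With only 4 livers, 36 of the 15568 other genes came within 0.1 of Acsl5. The limma adjusted P values of the 3 genes were 0.318, 0.369 and 0.201.

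The remaining acyl-CoA synthetases were described from a list of 15 further genes, of which 14 were in the table and 11 passed the filter. 1 of the 11 was called by limma, Aacs, and it was lower in LXRDKO, where 0.186% of all genes tested were called lower. DESeq2 and edgeR each called 1 as well, beside 2.03% of all genes called lower by DESeq2 and 0.315% called by edgeR. Aacs, or acetoacetyl-CoA synthetase, activates the ketone body acetoacetate in the cytosol for sterol and fatty acid synthesis. Its normalized counts were 9585 and 9471 in WT and 4236 and 4555 in LXRDKO, and livers of the same genotype were almost level. Aacs fell by 1.12 on the log2 scale (standard error 0.09, limma adjusted P = 0.0254). DESeq2 (adjusted P = 9.28e-15) and edgeR (adjusted P = 0.0294) also called Aacs. The limma call was lost without LXRDKO replicate 1 (log2 fold change −1.06) and without LXRDKO replicate 2 (−1.17). In both of these fits limma also called far fewer genes in all. Acss1, the mitochondrial acetyl-CoA synthetase, was low, with 20.5 and 18.7 normalized counts in WT against 65.5 and 42.9 in LXRDKO, a log2 fold change of 1.39 (limma adjusted P = 0.218). Acss3, a propionyl-CoA synthetase, and Acsm2 overlapped between genotypes, with log2 fold changes of −0.22 and 0.21. The median of the 11 log2 fold changes was −0.00, with 6 lower and 5 higher.

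**Figure D3:**
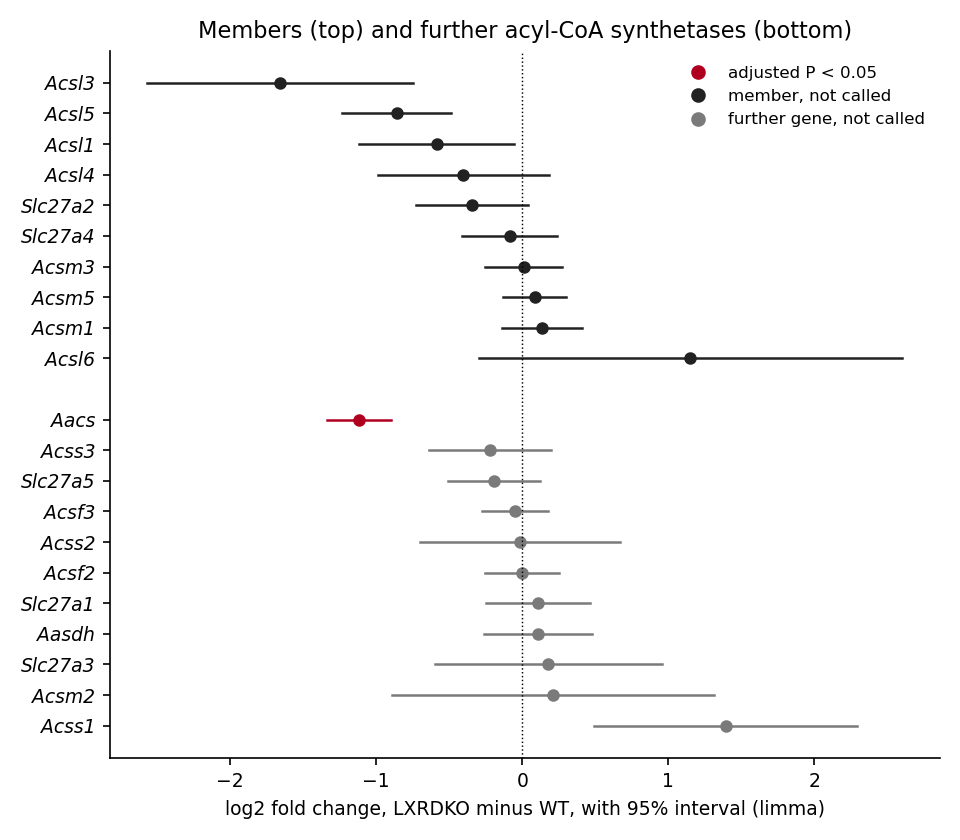
Limma log2 fold changes (LXRDKO minus WT) with 95% intervals for the 10 members, in the upper block, and the 11 further acyl-CoA synthetases tested, in the lower block. Aacs, at −1.12, is the only point with an adjusted P value under 0.05, the intervals of Acsl3, Acsl5 and Acsl1 lie below 0 and that of Acss1 lies above 0 without passing the adjusted threshold, and Acsl6 is drawn although it passed the filter only through LXRDKO.

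Acyl-CoA thioesterases, which split acyl-CoA back into fatty acid and coenzyme A, numbered 14 tested of 16. By limma 0 were called, 0 reached 0.05 before adjustment, DESeq2 and edgeR called 0, and the median log2 fold change was −0.10 with 9 lower and 5 higher. Acot4, a peroxisomal thioesterase, had 7347 and 12251 normalized counts in WT against 4666 and 7285 in LXRDKO (log2 fold change −0.70, limma adjusted P = 0.400). Acot3, another peroxisomal thioesterase, had 1226 and 5475 in WT and 1048 and 2104 in LXRDKO, so the WT livers spanned a factor of 4.46 and held the higher LXRDKO value between them. Acot1 and Acot2, its cytosolic and mitochondrial relatives in the same cluster on chromosome 12, also overlapped, with log2 fold changes of −0.38 and −0.60. Acot11 was called by limma as higher only when WT replicate 1 was left out (log2 fold change 1.18, adjusted P = 0.0352).

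Among 13 tested genes of coenzyme A synthesis and breakdown, limma called 0, edgeR 0 and DESeq2 1, while 3 had an unadjusted limma P value under 0.05, all lower, beside 2.03% of all genes called lower by DESeq2 and 7.50% lower at that unadjusted P. The median log2 fold change was −0.21, with 11 lower and 2 higher, where 50.9% of all genes were lower. Vnn1, which releases pantothenate from pantetheine, had 3503 and 5886 normalized counts in WT against 2293 and 2678 in LXRDKO, and differed by −0.87 on the log2 scale (adjusted P = 0.244 in limma and 0.00792 in DESeq2). Without WT replicate 1 limma called Vnn1 (−1.25, adjusted P = 0.0128), and without WT replicate 2 the value was −0.50 (adjusted P = 0.207). Pank1, the pantothenate kinase that starts coenzyme A synthesis, and Slc5a6, the carrier that imports pantothenate, had log2 fold changes of −0.37 and −0.38 without overlap (limma adjusted P = 0.294 and 0.324). Nudt7, a peroxisomal hydrolase of coenzyme A, overlapped between the genotypes, with a log2 fold change of −0.35.

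Of 16 tested genes that bind acyl-CoA or carry it into mitochondria and peroxisomes, Cpt1b passed the filter only through WT liver. Among the other 15, 14 were lower and 1 was higher, where 50.9% of all genes were lower, and the log2 fold changes had a median of −0.20. Limma called 0, edgeR 0 and DESeq2 2 (Dbi and Abcd3), beside 2.03% of all genes called lower by DESeq2. An unadjusted limma P value under 0.05 was met by 2 of the 15, both lower, beside 7.50% of all genes. Dbi, the acyl-CoA binding protein, had 31356 and 34572 normalized counts in WT against 19375 and 20330 in LXRDKO. Its groups stood clearly apart, at −0.73 on the log2 scale (adjusted P = 0.0893 in limma and 5.13e-06 in DESeq2). Without WT replicate 1, limma called Dbi (adjusted P = 0.0370) and Abcd2, a peroxisomal importer of very-long-chain acyl-CoA (log2 fold change −2.39, adjusted P = 0.00460). With all livers Abcd2 had 1151 and 4943 normalized counts in WT against 1097 and 811 in LXRDKO, which put nearly all of the difference in WT replicate 2. Abcd3, a peroxisomal importer of the same family, had 46707 and 55660 in WT and 27924 and 38477 in LXRDKO (DESeq2 adjusted P = 0.0363). Cpt1b, the muscle form of carnitine palmitoyltransferase, was low, with 25.1 and 50.9 in WT and 12.3 and 4.29 in LXRDKO, and Crat, which makes acetylcarnitine, overlapped (log2 fold change −0.78).

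**Figure D4:**
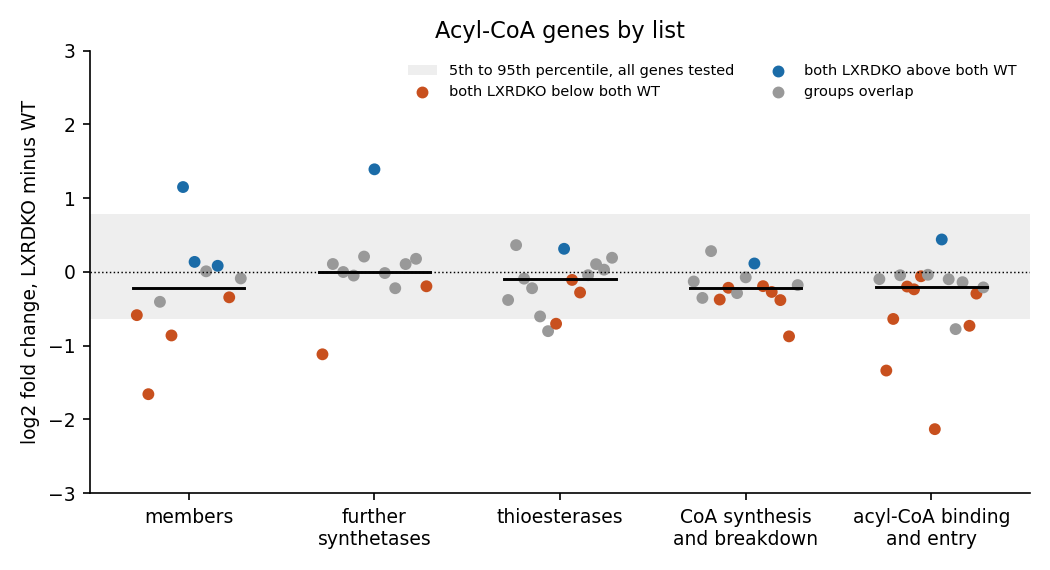
Limma log2 fold changes (LXRDKO minus WT) of the 10 members and of each further list, with 1 point per gene, a bar at the median of the list, a dotted line at the median of all genes tested and a grey band from the 5th to the 95th percentile of all genes tested (−0.64 to 0.78). Orange points have both LXRDKO livers below both WT livers, blue points both above, and grey points overlap. Of the synthetases, Acsl3, Acsl5 and Aacs lie under the band, and Acsl6 and Acss1 lie over it.

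Lists of cell type markers were summed in each liver, since in whole liver fewer cells of a type and less RNA per cell cannot be told apart. Summed hepatocyte markers, 7 of 8 in the table and none at 0, were 6839460 and 7688530 normalized counts in WT against 7151330 and 6419500 in LXRDKO. Alb alone made up most of each sum, at 4940810 and 5959090 in WT and 5214020 and 4644570 in LXRDKO. Limma and edgeR called 0 of the hepatocyte markers. Hnf4a, higher in LXRDKO (log2 fold change 0.60), was the 1 with an unadjusted limma P under 0.05. It was also the 1 called by DESeq2 (adjusted P = 0.0115). Kupffer cell markers were lower for 8 of 8 genes, at 9075 and 9572 in WT and 1319 and 776 in LXRDKO, and limma called 4, edgeR 5 and DESeq2 7. 1 of the 8, Timd4, passed the filter only through WT, and without it edgeR called 4 and DESeq2 6 of 7. Endothelial markers were lower for 6 of 7, from 10208 to 11507 in WT and from 6316 to 7989 in LXRDKO. Limma, DESeq2 and edgeR each called 2 of them. Over all genes, 50.9% were lower, 0.186% were called lower by limma, 2.03% were called lower by DESeq2 and 0.315% were called by edgeR. Stellate markers were higher for 7 of 7, from 17267 to 18415 in WT and from 24093 to 26170 in LXRDKO, and cholangiocyte markers for 6 of 6, from 2084 to 3599 and from 4572 to 5426. Limma called 0 of the stellate and cholangiocyte markers, where 4 and 3 had an unadjusted P under 0.05, DESeq2 called 2 and 1, and edgeR 0, beside 5.77% of all genes higher at that unadjusted P and 1.56% called higher by DESeq2. Summed levels overlapped for general macrophage (8082 to 13196 in all livers) and erythroid markers (8665 to 10466). They also overlapped for neutrophil (19.4 to 30.0) and adipocyte markers (179 to 857). Of the 7 macrophage markers, Adgre1 was lower and Lyz2 higher without overlap, as 23.0% and 21.7% of all genes were, and 5 overlapped. Alas2 made up most of the erythroid sum (9865 and 6678 in WT, 8653 and 8014 in LXRDKO). Hbb-bs was at 459 and 1562 in WT and 1011 and 1007 in LXRDKO. Cidec made up most of the adipocyte sum (277 and 805 in WT, 168 and 816 in LXRDKO). Adipoq, Plin1 and Retn had at most 2 reads per liver. Lymphocyte markers were at 169 and 261 in WT and 163 and 126 in LXRDKO. The part that these cell types had in the values of Acsl1, Acsl3, Acsl5 and Slc27a2 was not tested.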

How the data were processed

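Liver RNA of 2 WT and 2 LXRDKO mice was captured by poly(A) with a stranded KAPA kit and sequenced as single-end 50-bp reads. The authors aligned reads to mm10 with STAR 2.6.0c, per the submitters' processing notes, and normalized them with DESeq2. The deposited values are a signal: the authors divided read counts by 1 size factor per library, and the table holds 25010 genes in 4 columns. The counting tool, the annotation and the handling of strand and of multiply aligned reads were not given in the sources used here. All values (100%, within 0.1 read) were whole multiples of what 1 read is worth, so reads were recovered, between 55772659 and 72842744 per library. Counts of a gene at this depth carry counting error, and the spread between mice comes on top of it.

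Genes were placed by Ensembl identifier on GENCODE M21 (GRCm38), where 24987 matched. Levels per kb used the longest APPRIS principal transcript. The test was limma 3.58.1 (R 4.3.3, with a trend) on log2(normalized count + 1), for genes whose mean was 10 or more, and P values were adjusted over all genes tested by the Benjamini-Hochberg method at 0.05. DESeq2 1.42.0 and edgeR 4.0.16 (quasi-likelihood) were run on the recovered reads. Other alternatives were a pseudocount of 0.5 or 8, the filter left out or raised to a mean of 50, other scalings (library total, upper quartile, TMM), limma without trend or with robust moderation, the replicate number as a block, thresholds of 0.10 and 0.01, and each liver left out in turn. The scripts were tested on simulated data.

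The members and lists were chosen with earlier results of these data known, so no list was tested. All 10 members were named, and from each further list each gene called by limma and the 4 tested genes with the largest log2 fold change. Abcd3 and Acot11 were named after their values were seen, as were the genes that share exons with a member. Acsbg2, Acot10, Coasy, Acbd7, Tf and Lep were not analysed here. Acsm4, Acsbg1, Slc27a6 and Acot5 did not pass the filter. Promoters are from RefSeq (GRCm38.p6). ATAC-Seq was not analysed here.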

Additional observations from a re-analysis of the deposited data

How the results depend on the processing

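Of 159 alternative values for the log2 fold changes of the 10 members, 153 kept their direction and their side of the threshold. Without 1 liver, when the lone liver of a genotype is assumed to vary like the others, Acsm3 ranged from −0.097 to 0.12 (−0.097 without WT replicate 2 and −0.017 without LXRDKO replicate 1) and Slc27a4 from −0.23 to 0.058 (0.058 without WT replicate 1). The median of −0.22 over all 10 was −0.34 with a mean of at least 50, which removes Acsl6, −0.16 with scaling to the library total, and −0.25 to −0.11 without 1 liver. No pairing of mice by replicate number was given in the sources used here. Over all genes tested, the correlation of replicate deviations between genotypes was 0.0031, a value that does not describe single genes. Acsl1, Acsl3, Acsl4 and Acsl5 were higher in replicate 2 in both genotypes. Acsl6, Acsm3 and Slc27a4 were higher in replicate 1 in both, and the order of Acsm1, Acsm5 and Slc27a2 differed between genotypes. With the replicate number as a block, limma called 1 member (Acsl3, adjusted P = 0.0284) and 90 genes in all, against 50 without it.

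DESeq2 called 1 member (Acsl5), 1 gene of coenzyme A synthesis and breakdown, 2 of binding and entry and 567 in all. Over all genes, limma called 25 with a mean of at least 50, 1 without the trend, 138 at 0.10 and 2 at 0.01. At 0.10 it called 1 gene of binding and entry (Dbi), and Aacs was lost without the trend (adjusted P = 0.212) and at 0.01, which left 0 further synthetases. Without 1 liver, calls ranged from 0 to 1 for the members, further synthetases, thioesterases and coenzyme A genes, from 0 to 2 for binding and entry, and from 2 (without LXRDKO replicate 1) to 265 (without WT replicate 1) over all genes, with 157 without WT replicate 2 and 4 without LXRDKO replicate 2. The causes were not tested. Using the union of exons, chosen after seeing the data, changed the order of Acsl1 and Acsm1 in LXRDKO and the shares of the ACSL sum. Depth limited Acsl6, with 7 to 30 reads per liver.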

Other observations

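Replicate livers differed by more than 2-fold in several acyl-CoA genes. WT replicate 2 was above WT replicate 1 by a factor of 4.46 for Acot3, 4.30 for Abcd2, 2.97 for Acot2, 2.40 for Acot1, 2.33 for Crat and 2.03 for Cpt1b. The opposite order was seen for Acot11, by a factor of 3.10, and for the synthetase Acsm2, by 2.50. Among the members the ratio of the higher to the lower WT liver was at most 1.50, for Acsl3. Between the LXRDKO livers, replicate 1 was higher for Acsl6, by a factor of 2.66, whereas replicate 2 was higher for Acsl3 by 2.05, Acsl4 by 1.61, Acsl1 by 1.44 and Acsl5 by 1.15, and the other members stayed at or under 1.12. These genes were chosen after their values were seen, and the cause of the spread was not tested.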
